A study of Mus musculus with 8 samples.

Results

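The genes followed here encode muscle ubiquitin ligases: Asb2, Asb10, Asb11, Asb14, Asb15, Asb18, Fbxo32, Trim63, Trim54 and Trim55. They were picked by gene name, 10 of the 54532 genes in the table, and lie on 9 chromosomes. Asb14 was put at the centre because its level in cHET hearts against control hearts was already known to be among the lowest, so its own values in that contrast are a description and carry no test. The question was whether the other 9 genes share its pattern. Heart tissue of mouse littermates was taken at postnatal day 4. The cHET group (4 libraries) had the genotype Mrps5 fl/+; Myh6-Cre, in which Cre under the promoter of the cardiomyocyte gene Myh6 removes 1 allele of Mrps5 late in embryonic life. Mrps5 codes for a small-subunit protein of the mitochondrial ribosome. The control group (4 libraries) was Mrps5 fl/+ without Cre. All animals of both groups therefore carried the floxed allele, only cHET hearts carried Cre, and heart cells other than cardiomyocytes were not targeted. An effect of Cre itself cannot be told apart from that of the lost allele. Libraries are called by their labels, such as cHET 1 or control 1.

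Ubiquitin ligases choose the proteins that are tagged with ubiquitin and degraded by the proteasome. Asb proteins pair ankyrin repeats, which hold the substrate, with a SOCS box that docks to elongin B, elongin C and cullin 5. Fbxo32 (atrogin-1) is the F-box subunit of a cullin 1 ligase, and Trim63 (MuRF1), Trim55 (MuRF2) and Trim54 (MuRF3) are RING finger ligases of the sarcomere. In skeletal muscle Fbxo32 and Trim63 are the classic genes of atrophy, induced by FoxO transcription factors, and in heart both are linked to the turnover of contractile and signalling proteins.

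The libraries held 15490622 to 19234777 reads assigned to genes, as rebuilt from the table. In them 12890 to 13175 genes reached 1 FPKM (reads scaled to gene length and to 1 total per library). That total was 0.968 to 1.04 times the rebuilt reads of the library, and how it was set was not tested. The 10 cardiomyocyte markers were all detected, and their summed level was 7873 to 9234 FPKM in cHET libraries against 9707 to 10818 FPKM in control libraries, with no overlap. The sum was carried by abundant genes such as Myh6 and Mb, and the markers did not move together: 6 of the 10 had lower means in cHET, Mb and Pln without overlap, and 4 had higher means, of which Ckmt2 did not overlap (208 ± 23.3 FPKM in cHET and 140 ± 36.0 FPKM in control; SD, n = 4 each). The gap between the cardiomyocyte sums is given on the FPKM scale, and its cause was not tested. FPKM of all genes summed to 376014 to 392047 in cHET libraries, and to 450265, 467217, 377345 and 353291 in control 1 to 4. As shares of those totals, the cardiomyocyte sums of the groups overlapped. Control 1 and control 2, with the largest totals, had cardiomyocyte sums of 10818 and 9707 FPKM. Control 3 and control 4, with smaller totals, had sums of 9751 and 10153 FPKM, also above every cHET library. In heart tissue, fewer cells of a type and less RNA per cell cannot be told apart. Mrps5 stood at 6.84, 7.12, 6.995 and 7.68 FPKM in cHET 1 to 4 and at 11.6, 6.27, 10.1 and 5.15 FPKM in control 1 to 4, so that control 2 and control 4 lay below each cHET library and the targeted gene does not separate the labels (a log2 difference of -0.13, at an adjusted p of 0.849 by limma). Judged by Xist and Ddx3y, cHET 1, control 1 and control 3 came from males and the other 5 libraries from females. The brown fat gene Ucp1 was 17.8 and 16.7 FPKM in control 1 and control 2 and 6.56 FPKM or less elsewhere. The 8 atrial markers summed to 265 FPKM in cHET 3 and to 1510 to 5415 FPKM in the other libraries. Whether the tissue taken held the same share of atrium in each library was not tested.

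All 10 genes were expressed at a mean of at least 1 FPKM, so all entered the test over 13029 genes. Their levels spanned a wide range. Trim55, Asb2 and Trim63 averaged 135, 109 and 78.4 FPKM over the 8 libraries and together made up 86.7% of the summed FPKM of the 10 genes. Asb11 followed at 20.6 FPKM. Trim54 (8.09), Asb10 (7.22), Asb14 (5.74) and Fbxo32 (4.66 FPKM) formed a middle tier, and Asb15 (1.78) and Asb18 (1.59 FPKM) were the lowest. Ranges over the libraries overlapped between each pair of neighbours in this order except Trim63 over Asb11 and Asb11 over Trim54. Trim55 was nevertheless above Asb2, and Asb2 above Trim63, in each of the 8 libraries, whereas Asb14 exceeded Fbxo32 in 4 of 8 and Asb15 exceeded Asb18 in 4 of 8. The libraries varied most for Asb14, whose highest value was 8.14 times its lowest, and least for Trim55, at 1.33 times. The ratio of Asb14 includes the difference between the groups for which it was chosen.

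**Figure D1:**
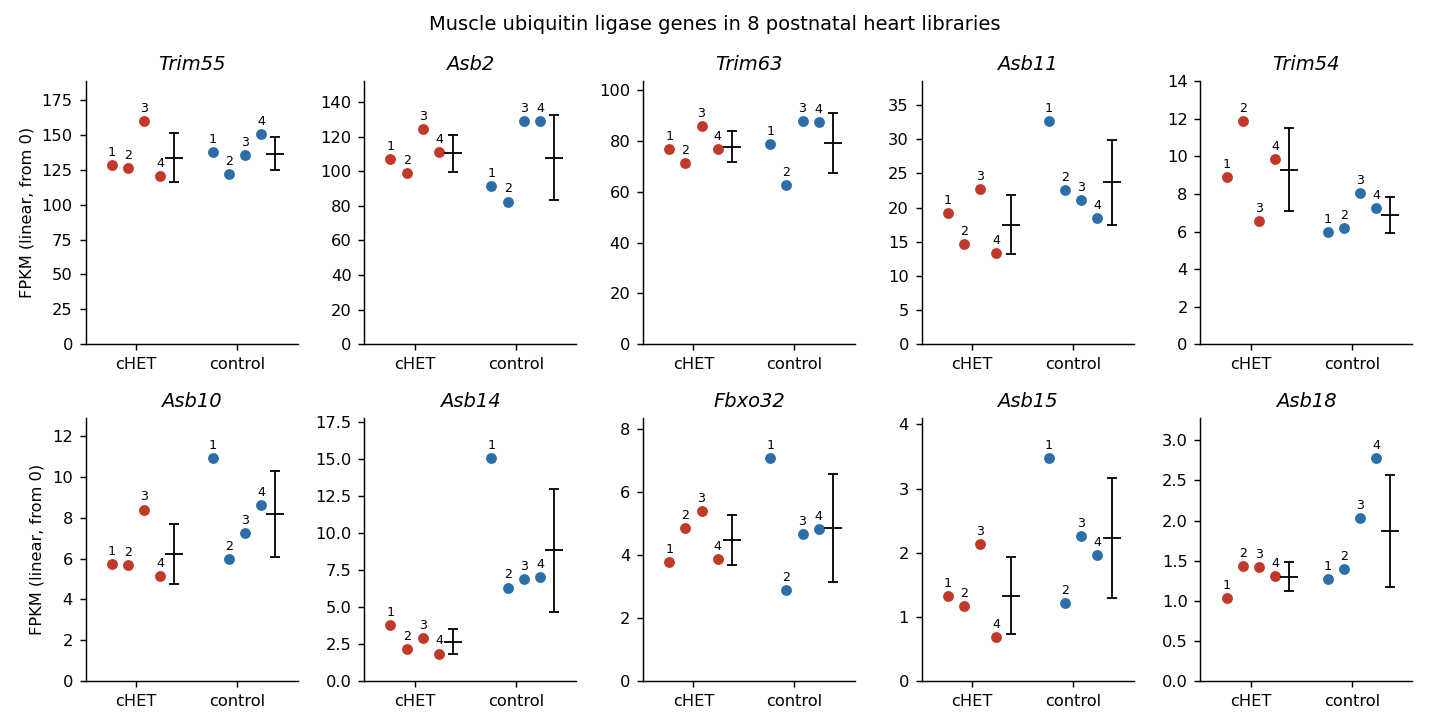
Level of each gene in FPKM (linear axes from 0) in the 4 cHET libraries (red, left) and the 4 control libraries (blue, right); numbers are replicate labels, and the black bar gives mean and SD. Asb14 is the gene whose groups do not overlap, at 1.85 to 3.76 FPKM in cHET and 6.31 to 15.1 FPKM in control.

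Asb14, an ankyrin repeat and SOCS box gene, was low in every cHET library. It stood at 3.76, 2.13, 2.91 and 1.85 FPKM in cHET 1 to 4, against 15.1, 6.31, 6.89 and 7.02 FPKM in control 1 to 4. The highest cHET library lay below the lowest control library, and control 1 stood far above the other control libraries. The group means were 2.66 ± 0.860 FPKM in cHET and 8.82 ± 4.18 FPKM in control (SD, n = 4 each), a ratio of 0.302 and a log2 fold change of -1.37 (SE 0.261) on the scale of FPKM + 1. These values rested on 82 to 164 reads per cHET library and 260 to 597 reads per control library, and the 95% exact Poisson intervals, which cover counting error only, reached 4.39 FPKM at most in cHET 1 and no lower than 5.57 FPKM in control 2. Among 13029 genes only 3 had a more negative log2 fold change. Without control 1 the log2 fold change was -1.11. Within males Asb14 was 3.76 FPKM in the 1 cHET library against 6.89 and 15.1 FPKM in the 2 control libraries, and within females 1.85 to 2.91 FPKM in 3 cHET libraries against 6.31 and 7.02 FPKM in 2 control libraries. Without the 2 control libraries highest in Ucp1 the log2 fold change was -1.15.

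Marker lists of other kinds were apart between the groups in the same libraries. The cardiomyocyte sum above was lower in cHET on the FPKM scale, although 4 of its 10 markers were not. The 7 epicardial and mesothelial markers summed to 22.0 to 44.5 FPKM in cHET and 45.0 to 94.6 FPKM in control. Of these 7, 5 had lower means in cHET (Msln alone without overlap), and Wt1 (2.93 FPKM in cHET and 2.92 in control) and Tbx18 (6.03 and 5.71 FPKM) did not. The part of either list in the level of Asb14 was not tested.

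The gene Asb14 (ENSMUSG00000021898) lies on chromosome 14 from 26894557 to 26915258, plus strand, and overlaps no other gene of the table. Of its protein-coding neighbours, Appl1, 3.73 kb beyond its end, stood at 5.50 ± 0.347 FPKM in cHET and 5.33 ± 0.551 FPKM in control, and Dnah12, 2.85 kb before its start, did not exceed 0.0207 FPKM in any library.

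The promoter table of RefSeq (GRCm38.p6) gave 9 start sites for 8 of the 10 genes, and Fbxo32 and Trim55 were not matched. Windows from 250 bases before to 50 after each start were searched on both strands for GTAAACA (forkhead), CTA and TAG with any 4 bases between them (MEF2), CANNTG (E box) and TGATAA (for GATA factors). Windows of 3 genes are printed up to the gene's start, with matches in capitals: Asb14 as the gene with the lowest cHET level relative to control, and Asb18 and Trim63 as the promoters that held a forkhead match. They are chr14:26894364-26894556 on the plus strand, chr1:90014667-90014916 on the minus strand and chr4:134314870-134315119 on the plus strand.
Asb14: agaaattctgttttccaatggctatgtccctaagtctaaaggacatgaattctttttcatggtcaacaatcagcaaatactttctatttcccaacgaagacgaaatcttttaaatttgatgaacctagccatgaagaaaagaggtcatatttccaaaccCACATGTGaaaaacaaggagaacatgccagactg
Asb18: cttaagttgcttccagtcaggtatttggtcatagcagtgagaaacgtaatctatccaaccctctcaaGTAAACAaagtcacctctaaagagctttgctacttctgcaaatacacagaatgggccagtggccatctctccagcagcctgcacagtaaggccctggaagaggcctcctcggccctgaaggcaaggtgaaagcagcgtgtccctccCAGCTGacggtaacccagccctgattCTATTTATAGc
Trim63: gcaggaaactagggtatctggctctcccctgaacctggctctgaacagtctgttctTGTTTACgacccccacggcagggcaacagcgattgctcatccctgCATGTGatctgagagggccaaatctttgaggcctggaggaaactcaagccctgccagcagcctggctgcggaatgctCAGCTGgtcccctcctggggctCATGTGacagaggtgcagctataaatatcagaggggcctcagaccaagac
In Asb14 the capitals mark a pair of overlapping E boxes that begin 91 and 89 bases before the RefSeq start. In Asb18 they mark, in order, the forkhead letters, an E box and the MEF2 letters, and in Trim63 the forkhead letters on the minus strand followed by 3 E boxes. An E box was held by 9 of the 9 windows, but also by 72.3% of all 32851 windows of that length. The forkhead letters were in 2 of 9 windows (3.65% of all windows), the MEF2 letters in 1 of 9 (3.69%) and the GATA letters in 0 of 9 (9.05%). The Asb14 stretch of 250 bases was 36.0% G and C, where the median over all windows was 52.4%. A match describes the letters alone, and a missing match says only that they are not in this window.

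The other Asb genes of muscle did not pass the test, and 4 of the 5 had lower means in cHET. Asb15 (chr6:24528144-24573164), which has been linked to protein synthesis in rat skeletal muscle, stood at 1.33, 1.17, 2.13 and 0.691 FPKM in cHET 1 to 4 and at 3.48, 1.21, 2.25 and 1.97 FPKM in control 1 to 4. The groups overlapped, since cHET 3 was above control 2 and control 4. The log2 difference between the groups came to -0.46 (95% interval -0.99 to 0.073), with an SE of 0.237 and an adjusted p of 0.600 by limma.

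Asb11 (chrX:164436994-164459170), an X-linked gene whose zebrafish counterpart acts on a Notch ligand, stood at 19.3, 14.7, 22.7 and 13.3 FPKM in cHET 1 to 4 and at 32.6, 22.6, 21.1 and 18.5 FPKM in control 1 to 4. The libraries cHET 2 and cHET 4 lay below every control library, and cHET 1 and cHET 3 lay among them. The log2 difference came to -0.42 (95% interval -0.87 to 0.037), with an SE of 0.201 and an adjusted p of 0.585 by limma. Asb10 (chr5:24532697-24540978) stood at 5.75, 5.69, 8.41 and 5.13 FPKM in cHET 1 to 4 and at 10.9, 5.98, 7.27 and 8.62 FPKM in control 1 to 4. All cHET libraries but cHET 3 were below every control library. On the log2 scale it differed by -0.34 (95% interval -0.75 to 0.074), with an SE of 0.183 and an adjusted p of 0.620 by limma.

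Asb18 (chr1:89950220-90014666) stood at 1.04, 1.43, 1.42 and 1.31 FPKM in cHET 1 to 4 and at 1.27, 1.39, 2.04 and 2.78 FPKM in control 1 to 4. Control 3 and control 4 were high, and control 1 and control 2 lay within the cHET range. The log2 difference between the groups came to -0.29, with an SE of 0.165 and an adjusted p of 0.634 by limma. Its 95% interval ran from -0.66 to 0.078. The difference was -0.15 without control 4 and -0.56 without the 2 control libraries highest in Ucp1. Asb2 (chr12:103321142-103356001), which targets filamins for degradation and is needed for heart development in the mouse, stood at 107, 98.6, 124 and 111 FPKM in cHET 1 to 4 and at 91.5, 82.5, 129 and 129 FPKM in control 1 to 4. Every cHET value fell inside the control range. The log2 difference between the groups came to 0.055 (95% interval -0.32 to 0.43), with an SE of 0.165 and an adjusted p of 0.921 by limma.

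Control 1 was the highest and cHET 4 the lowest library for each of Asb10, Asb11, Asb14 and Asb15. Without control 1 the log2 fold changes of Asb15, Asb11 and Asb10 were -0.29, -0.26 and -0.20, each smaller by more than 1.5 times. On centred log2(FPKM + 1) values over the 8 libraries, Asb10 and Asb15 were each other's nearest gene among the 10, at a root mean square distance of 0.151. This distance depends on the size of the swings as well as on their shape, and shape alone was not compared. Asb15 was also the nearest of the 9 others to Asb14, but at a distance of 0.519, and it came 28th of 11321 protein-coding genes. The nearest of all was Ucp3, an uncoupling protein of muscle mitochondria, at 0.239. Ucp3 stood at 13.3, 8.69, 7.49 and 6.48 FPKM in cHET 1 to 4 and at 36.3, 12.4, 17.5 and 21.3 FPKM in control 1 to 4. Next came Lgals4, a galectin gene (0.392), Slc25a34 of the mitochondrial carrier family (0.401), Cacng6, a calcium channel subunit gene (0.418), and the dynein light chain gene Dynlt1c (0.423). Like Asb14, each of these 5 genes was highest in control 1 except Cacng6, which was highest in control 3 at 8.62 FPKM. The 5 genes were picked for closeness to the profile of Asb14, so a shared peak or group difference is a description.

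**Figure D2:**
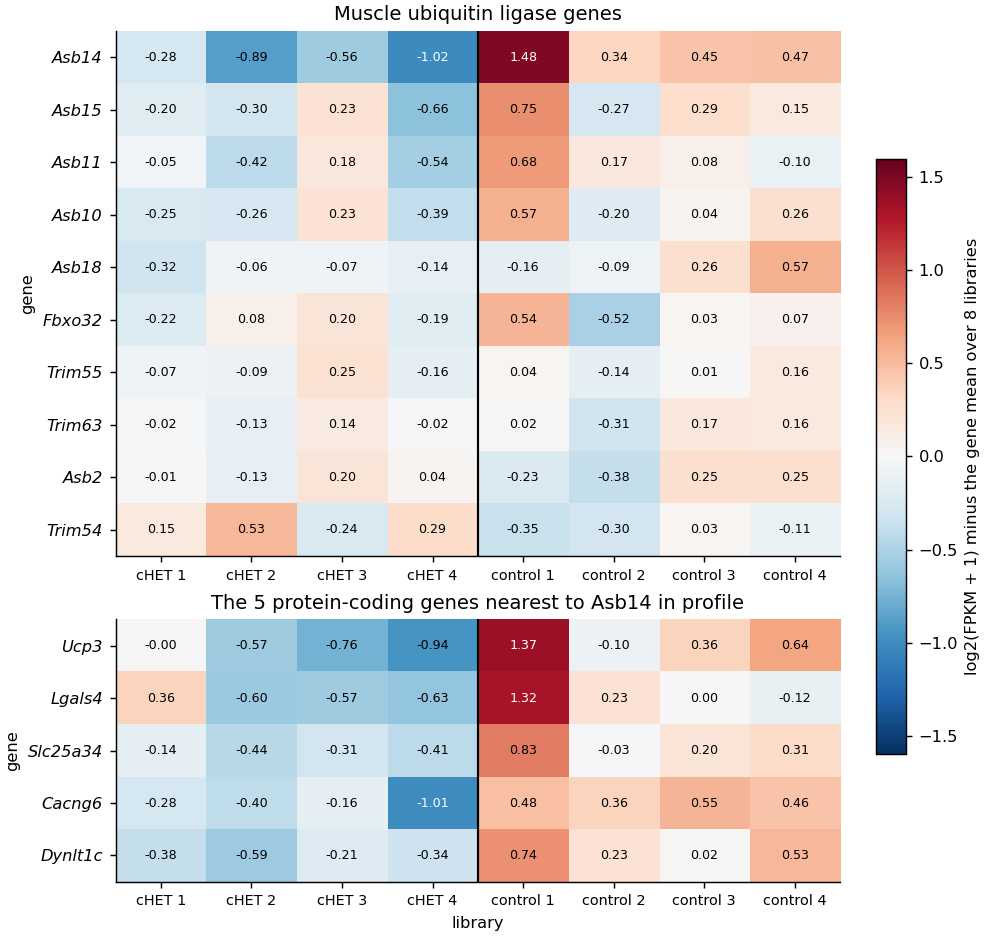
Centred log2(FPKM + 1) of each gene (rows) in the 8 libraries (columns, cHET left of the black line), as the difference from the gene's mean over all libraries. Asb14 ran from -1.02 in cHET 4 to 1.48 in control 1, Asb15, Asb11 and Asb10 shared these extremes at smaller size, and Ucp3 was the gene nearest to Asb14.

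Fbxo32 (chr15:58175879-58214932), whose protein targets calcineurin in the heart, averaged 4.47 ± 0.783 FPKM in cHET and 4.85 ± 1.72 FPKM in control (SD, n = 4 each). It stood at 3.77, 4.86, 5.38 and 3.86 FPKM in cHET 1 to 4 and at 7.07, 2.88, 4.65 and 4.82 FPKM in control 1 to 4. The control libraries held both the highest and the lowest value. The log2 difference between the groups came to -0.061 (95% interval -0.52 to 0.40), with an SE of 0.203 and an adjusted p of 0.929 by limma. Its exons overlap those of the antisense gene Gm15943, which reached no more than 0.304 FPKM in any library. Whether reads were counted by strand is not given in the sources used here.

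Of the muscle RING finger genes 0 of 3 passed the test. Trim63 (chr4:134315120-134329629), whose protein tags thick filament proteins, stood at 76.8, 71.2, 85.9 and 76.7 FPKM in cHET 1 to 4 and at 79.0, 62.6, 87.8 and 87.4 FPKM in control 1 to 4, with every cHET value inside the control range. On the log2 scale it differed by -0.018 (95% interval -0.30 to 0.27), with an SE of 0.127 and an adjusted p of 0.968 by limma. Trim55 (chr3:19644474-19692421) stood at 128, 126, 160 and 121 FPKM in cHET 1 to 4 and at 138, 122, 136 and 150 FPKM in control 1 to 4. The groups overlapped, with a log2 difference of -0.033 (95% interval -0.31 to 0.24), an SE of 0.122 and an adjusted p of 0.936 by limma. Within a library Trim55 was 1.72 ± 0.124 times Trim63 in cHET and 1.74 ± 0.165 times in control (SD, n = 4 each). The pair were each other's nearest among the 10, at a distance of 0.105. Within an intron of Trim55 lies BC002189 on the same strand, at 30.1 ± 6.19 FPKM in cHET and 26.0 ± 16.9 FPKM in control (SD, n = 4 each), with no exon shared.

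Trim54 (chr5:31116712-31137630), whose protein binds microtubules and the sarcomere, had the highest log2 fold change of the 10 genes. It stood at 8.88, 11.9, 6.55 and 9.86 FPKM in cHET 1 to 4 and at 5.96, 6.21, 8.08 and 7.27 FPKM in control 1 to 4. All cHET libraries but cHET 3, which lay among the control libraries, were above every control library. The log2 difference came to 0.37 (95% interval 0.0060 to 0.73), with an SE of 0.161 and an adjusted p of 0.552 by limma, and it was 0.51 without cHET 3 and 0.22 without the 2 control libraries highest in Ucp1. In the same libraries the summed level of 18 skeletal muscle markers was 26.9 to 59.3 FPKM in cHET and 11.3 to 23.3 FPKM in control. That sum came mainly from Casq1 (27.2 ± 10.96 FPKM in cHET and 9.55 ± 3.56 in control) and Tnni2 (7.35 ± 0.245 and 2.99 ± 1.09; SD, n = 4 each). The markers did not move together: 8 of the 18 had higher means in cHET and 8 had lower means. Only Casq1 and Tnni2 did not overlap between the groups. Of the defining markers, Myod1 and Myf5 were at 0 in all 8 libraries, and 13 of the 18 stayed under 1 FPKM in each of them. The lowest cHET value of Trim54 was in cHET 3, the library with the low atrial sum. The part of either marker list in the level of Trim54 was not tested. Exons of Trim54 overlap those of the antisense gene Gm15469, at 0.548 FPKM or less.

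Over the whole table, none of the other 9 genes met the test, as was also true of nearly every gene tested. Of the 9, 0 passed limma at an adjusted p under 0.05, where 0.023% of all 13029 genes passed (0.023% higher and 0.0% lower), and 0 passed with limma voom on the rebuilt reads, where 0.0154% of all genes passed. At an unadjusted p under 0.05 there was 1 of 9 by limma (Trim54, higher), against 8.95% of all genes. Lower by limma at that level were 0 of the 9 and 3.92% of all genes. By voom there was 1 of 9 (Asb11, lower), against 8.93% of all genes, 4.18% lower. The groups did not overlap for Asb14 alone of the 10 genes, which is the gene chosen for it, where they did not overlap for 4.74% of all genes (2.0% lower and 2.74% higher). Of the 9 genes without Asb14, 7 log2 fold changes were below 0, with a median of -0.061, beside a median of 0.0086 over all genes tested, of which 47.9% were below 0. TPM scaling raised the median of all genes to 0.10, and Fbxo32, Trim63 and Trim55 moved with it to values above 0 but below that median. The median of the 5 Asb genes without Asb14 was -0.34, with 4 of them below 0, and that of the 3 muscle RING finger genes was -0.018. With Asb14, which was chosen for its value, the 10 genes had a median of -0.18, and this was -0.11, -0.31 and -0.099 without control 1, control 2 and control 4 in turn.

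**Figure D3:**
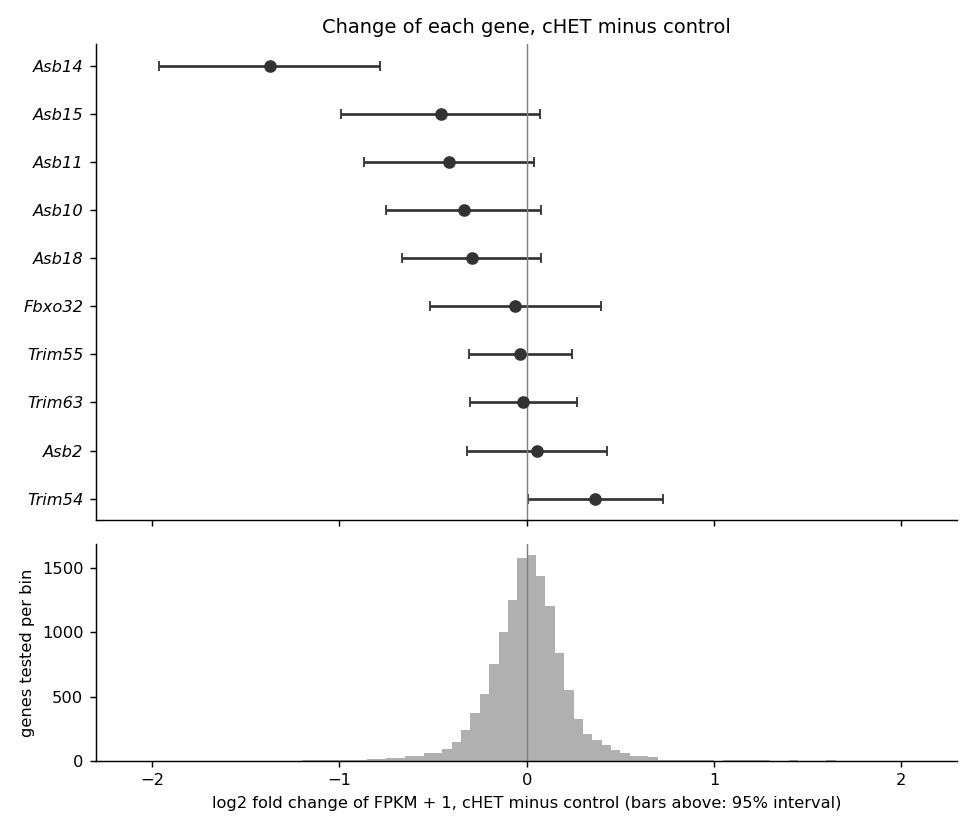
Top, log2 fold change of FPKM + 1 (cHET minus control) of the 10 genes with 95% intervals from limma; bottom, the number of all 13029 tested genes per bin of the same scale. Asb14 at -1.37 lies in the far left tail, Asb15, Asb11, Asb10 and Asb18 lie between -0.46 and -0.29, and of the other 9 genes only Trim54 has an interval that leaves out 0.

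The wider Asb family was then set beside them. Of 12 further Asb genes, Asb9 was listed at 0 in all libraries, Asb16 and Asb17 stayed at 0.401 FPKM or less, and 9 were tested. Of these 9, 0 passed limma in either direction, 8 log2 fold changes were below 0, and the median was -0.080. Over all genes tested 47.9% were below 0, with a median of 0.0086. Among the 8, Asb6 (-0.012), Asb4 (-0.015) and Asb7 (-0.030) lay close to 0. Asb8, the most abundant, stood at 29.3 ± 2.44 FPKM in cHET and 31.1 ± 3.15 FPKM in control (SD, n = 4 each). Asb5, a gene of muscle, stood at 1.81, 1.85, 1.59 and 1.03 FPKM in cHET 1 to 4 and at 2.41, 2.92, 2.61 and 2.68 FPKM in control 1 to 4. All cHET values of Asb5 lay below all control values, with a log2 difference of -0.52, an SE of 0.121 and an adjusted p of 0.337 by limma. Asb5 was the 1 gene of these 9 without overlap, where 4.74% of all genes did not overlap (2.0% lower). Asb13 had a log2 fold change of -0.15 and Asb1 one of 0.079.

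The machinery that the ligases work with was examined next. Of 16 genes of cullin scaffolds, adaptors and their regulators 0 passed in either direction, with a median log2 fold change of 0.022 and a range of -0.12 to 0.19. Nedd8, the modifier that activates cullins, stood at 92.1 ± 6.90 FPKM in cHET and 102 ± 21.9 FPKM in control, and Cops5, a subunit of the signalosome that removes it, at 25.9 ± 0.786 and 27.4 ± 3.85 FPKM. The scaffolds Cul3 (20.6 ± 1.55 FPKM in cHET and 18.6 ± 1.73 in control) and Cul1 (27.0 ± 1.03 and 24.98 ± 1.41; SD, n = 4 each) had the smallest p of those with a higher mean in cHET. Of 15 ubiquitin-activating and ubiquitin-conjugating enzyme genes 0 passed, with a median of 0.026. Ube2n (log2 fold change 0.17), Ube2l3 (0.13), Ube2b (-0.15) and Ube2h (-0.13) had the smallest p, and their limma adjusted p-values were 0.624 to 0.741.

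Other ubiquitin ligases of striated muscle had a median log2 fold change of 0.064 over 27 tested genes, with 17 above 0 and 0 past the test. The other 10 were below 0, where 47.9% of all genes tested were below 0. Klhl40, a cullin 3 adaptor that stabilises thin filament proteins, stood at 6.34, 7.24, 10.7 and 6.999 FPKM in cHET 1 to 4 and at 5.77, 4.46, 4.16 and 6.49 FPKM in control 1 to 4. Its groups overlapped, since cHET 1 was below control 4 (log2 difference 0.50, SE 0.168, with an adjusted p of 0.455 by limma). Its relative Klhl31 stood at 16.5 ± 1.27 FPKM in cHET and 13.8 ± 1.603 FPKM in control (log2 difference 0.25, with an adjusted p of 0.524 by limma). Fbxo25 (log2 fold change -0.19) and Kbtbd12 (-0.11) had the smallest p of those with a lower mean in cHET.

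Regulators of the atrophy programme, among them the FoxO genes, had a median of 0.037 over 17 tested genes, and 0 passed. The log2 fold change was 0.17 for Smad2, 0.21 for Mef2d and -0.045 for the kinase gene Akt1. Cebpd, a transcription factor of the acute response, stood at 2.70 ± 0.0699 FPKM in cHET and 3.57 ± 0.987 FPKM in control, with no overlap (log2 difference -0.28, with an adjusted p of 0.585 by limma). Of 16 autophagy genes and FoxO targets 13 were below 0, with a median of -0.057, and 0 passed. Over all genes tested 47.9% were below 0, with a median of 0.0086. Map1lc3b, an autophagosome protein gene, stood at 20.2, 19.7, 18.4 and 16.8 FPKM in cHET 1 to 4 and at 26.6, 20.4, 21.8 and 20.9 FPKM in control 1 to 4. Its groups did not overlap (log2 difference -0.24, with an adjusted p of 0.547 by limma). Cebpd and Map1lc3b were each the 1 gene of their list without overlap, where 4.74% of all genes did not overlap (2.0% lower). Pink1, a kinase of mitophagy, had a log2 fold change of -0.27, Ddit4 one of 0.12 and Becn1 one of 0.081.

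Reported substrates and partners of these ligases had a median of 0.017 over 18 tested genes, with 10 above 0 and 0 past the test. The other 8 were below 0, where 47.9% of all genes tested were below 0. Flnc, the muscle filamin, a family that Asb2 targets, stood at 36.4, 37.0, 53.1 and 52.1 FPKM in cHET 1 to 4 and at 25.9, 22.3, 38.2 and 48.8 FPKM in control 1 to 4. The groups overlapped (log2 difference 0.43, SE 0.244, with an adjusted p of 0.634 by limma). Ppp3ca, the calcineurin subunit targeted by Fbxo32, stood at 8.11 ± 0.602 FPKM in cHET and 9.37 ± 0.446 FPKM in control, with no overlap (log2 difference -0.19, with an adjusted p of 0.535 by limma). It was the 1 gene of the 18 without overlap, where 4.74% of all genes did not overlap (2.0% lower). Eif3f, a translation factor gene and another Fbxo32 target, had a log2 fold change of -0.14, and Actc1, cardiac actin, one of 0.34.

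**Figure D4:**
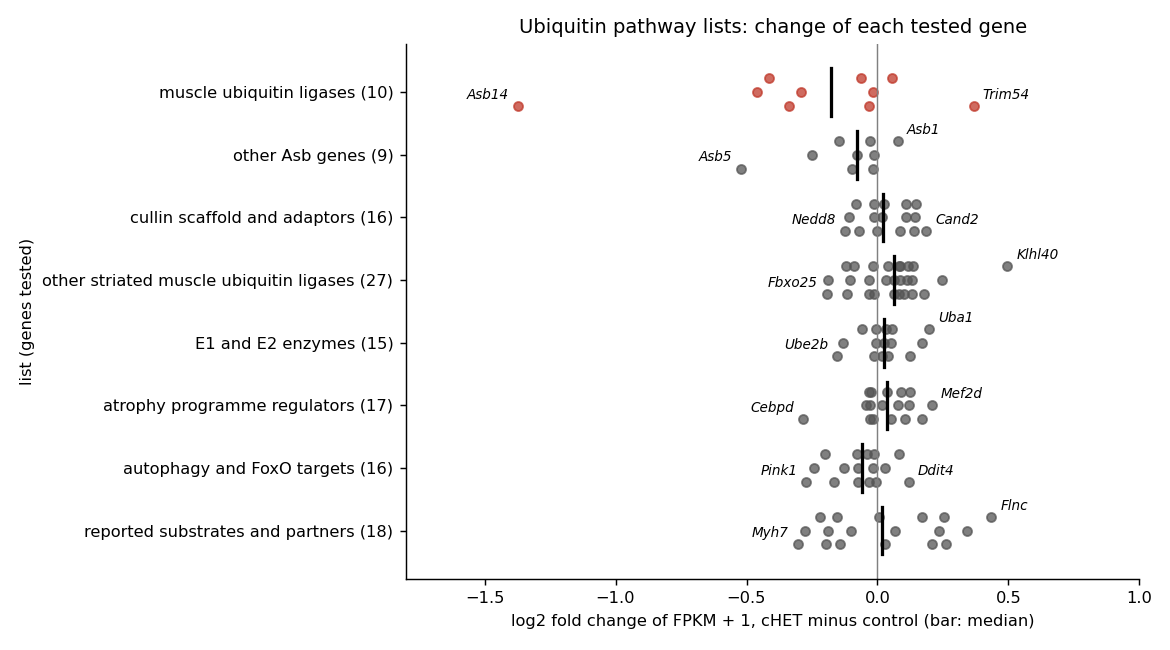
Log2 fold change of FPKM + 1 (cHET minus control) of each tested gene (points) in the 10 muscle ubiquitin ligases (red) and in 7 lists of the pathway (grey), with the median of each list as a black bar; the outermost genes are named. Medians of the 7 lists lay between -0.080 and 0.064, and Asb14 was the only gene beyond -1.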

How the data were processed

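Poly-A RNA of heart tissue was sequenced in 8 libraries, per the labels' protocols. The authors deposited 1 FPKM value per gene and library, with gene lengths. The submitters' processing notes name featureCounts 1.5.0-p3, HISAT2 2.0.5, DESeq2 1.20.0 and the build mm9, without stated roles. However, 98.3% of the 54409 identifiers also found in GENCODE M21 start and end at the same bases there, so coordinates are on GRCm38. FPKM times length gave whole reads for 100% of values (within 0.05 reads).

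The test used limma 3.58.1 (R 4.3.3; trend and robust, two-sided, no covariate) on log2(FPKM + 1) of the 13029 genes with a mean of at least 1 FPKM, adjusted by Benjamini-Hochberg over all of them at 0.05. This scale understates changes of low genes. Members, lists and tests were chosen with earlier results of these data known. Named are the 10 members, the 2 genes per list and direction with the smallest p, and the 5 genes nearest to Asb14. Asb8, the Asb14 neighbours and Ucp1 were named after their values were seen. No pair of libraries within a group agreed within sampling noise (chi-square of at least 14.3 per gene). The design text calls the libraries of a group biological replicates, without saying whether hearts were pooled. Other scalings, filters, pseudocounts and fits, and each library left out, were tried.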

Additional observations from a re-analysis of the deposited data

Results flagged for a closer look

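Asb14 in control 1, at 15.1 FPKM, stood far from the other 3 control libraries (6.31 to 7.02 FPKM). The gap to the nearest of them exceeded Dixon's 95% value for 4 samples. It was the 1 flag among 20 groups of 4 values, where chance flags about 1 in 20. Control 1 was also the highest library for Asb10, Asb11, Asb15 and Fbxo32, and it was male, with Ucp1 at 17.8 FPKM.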

How the results depend on the processing

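Over 22 other settings 0 of the 9 genes beside Asb14 passed the test, and their lowest limma adjusted p was 0.261, for Asb18 with library weights. Asb14 stayed below 0 in all 22, at -1.70 to -1.11, and so did the median of the 10 genes, at -0.31 to -0.099, and Asb10, Asb11, Asb15 and Asb18, while Trim54 stayed above 0. Since Asb14 was chosen for its value in this contrast, its sign is a description. The median of the 10 includes it. The count of genes past the test over the whole table was 3, against 11 with limma library weights (8 of them higher) and 1 with the replicate block, and 2 to 3 with 1 library left out. The values did not settle whether the replicate numbers pair the libraries: correlations of deviations were 0.286, 0.266, 0.052 and 0.057 for equal numbers. The libraries cHET 1 and cHET 2 went best with the control of the same number. In contrast, cHET 3 went best with control 4 (0.344) and cHET 4 with control 2 (0.102).

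The genes near 0 changed sign with the setting. TPM scaling moved the median of all genes to 0.10, and with it Fbxo32 to 0.026, Trim63 to 0.081 and Trim55 to 0.066, each still below that median. For the other settings the cause was not tested. Under quantile normalization Trim63 was 0.0020 and Trim55 0.016, and with sex as a covariate Trim63 was 0.0044. Asb2 was -0.15 with library weights and -0.23 without the 2 control libraries highest in Ucp1. With 1 library left out Asb2 ran from -0.064 to 0.15, Fbxo32 from -0.24 to 0.11, Trim63 from -0.13 to 0.035 and Trim55 from -0.12 to 0.015. The fewest reads were 54, for Asb15 in cHET 4, with a 95% exact Poisson interval of 0.519 to 0.902 FPKM. Counting error did not cover the spread of Asb14 in control: the interval of control 1 was 13.9 to 16.3 FPKM, and those of the other control libraries ended at 7.87 FPKM.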
